A study of Mus musculus with 39 samples.

Results

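Collagen chains, decorin, the collagen chaperone and vimentin were followed through 39 single cells of the Krt19 lineage of adult mouse liver. The genes were chosen by symbol: Dcn, Col1a1, Col1a2, Col3a1, Serpinh1 and Vim. They are 6 of the 10061 gene symbols in the deposited matrix, all 6 were measured, and all 6 were among the 9646 genes that reached 1 CPM in 4 or more cells. CPM here is the linear value obtained from the deposited log2 value, a read count scaled to the size of the library, with the transcripts of a symbol added up. Every cell came from Krt19CreERT/Rosa26CAG-EGFP mice, in which a tamoxifen-responsive Cre recombinase is produced where Krt19, a keratin gene of bile duct epithelium, is active and switches on a lasting GFP reporter. A green cell therefore either used the Krt19 driver or descends from a cell that did. Green cells were sorted by flow cytometry and picked individually. The labels give 1 group and no untreated or unlabelled comparison cells, and they do not name the animal, age, sort, plate, or the dose and timing of the inducer. Cells are thus not replicates of a condition, and every value below describes these cells with no test between them.

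Type I collagen is a triple helix of alpha1 chains from Col1a1 and an alpha2 chain from Col1a2, and type III collagen is built from Col3a1 alone. The chains are folded in the endoplasmic reticulum with the help of Serpinh1 (Hsp47), a chaperone dedicated to collagen. Outside the cell, decorin, the small leucine-rich proteoglycan encoded by Dcn, binds collagen fibrils and growth factors of the TGF-beta family. Vim encodes vimentin, the intermediate filament protein of mesenchymal cells, leukocytes, endothelium and mesothelium. In liver these genes are best known from hepatic stellate cells and portal fibroblasts, and the mesothelium that covers the organ makes several of them as well, while hepatocytes and resting duct cells are known for little vimentin or fibrillar collagen.

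The sequences upstream of the members are shown because the genes were high together in the same cells, as described below. A RefSeq promoter was matched for 4 of the 6 members, Col1a2, Col3a1, Serpinh1 and Vim. The 250 bases before each annotated start are given on the strand of the gene, in assembly GRCm38.p6, with matches to the motifs searched in capitals. The motifs searched on both strands were the TATA box TATAAA, the CCAAT box, the GC box GGGCGG, the Smad box CAGAC and the heat shock element GAANNTTC. Where GTCTG stands in capitals the Smad box lies on the opposite strand, and where ATTGG does the CCAAT box lies there.
Col1a2 (chr6:4505368-4505617, plus strand): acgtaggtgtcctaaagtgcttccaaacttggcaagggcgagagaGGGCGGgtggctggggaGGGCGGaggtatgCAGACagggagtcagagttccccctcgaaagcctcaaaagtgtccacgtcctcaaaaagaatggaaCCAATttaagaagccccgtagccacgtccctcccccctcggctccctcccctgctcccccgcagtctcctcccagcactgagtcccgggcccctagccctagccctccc
Col3a1 (chr1:45311288-45311537, plus strand): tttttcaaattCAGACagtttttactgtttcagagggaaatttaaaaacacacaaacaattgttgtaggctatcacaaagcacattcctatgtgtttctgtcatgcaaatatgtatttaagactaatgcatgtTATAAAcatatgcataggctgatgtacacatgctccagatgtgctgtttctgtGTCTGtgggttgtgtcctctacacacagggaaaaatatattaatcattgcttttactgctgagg
Serpinh1 (chr7:99353240-99353489, minus strand): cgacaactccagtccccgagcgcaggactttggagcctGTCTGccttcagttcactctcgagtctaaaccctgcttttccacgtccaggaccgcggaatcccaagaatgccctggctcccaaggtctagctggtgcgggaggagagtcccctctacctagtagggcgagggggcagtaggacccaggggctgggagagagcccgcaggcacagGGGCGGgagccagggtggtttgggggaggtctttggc
Vim (chr2:13574061-13574310, plus strand): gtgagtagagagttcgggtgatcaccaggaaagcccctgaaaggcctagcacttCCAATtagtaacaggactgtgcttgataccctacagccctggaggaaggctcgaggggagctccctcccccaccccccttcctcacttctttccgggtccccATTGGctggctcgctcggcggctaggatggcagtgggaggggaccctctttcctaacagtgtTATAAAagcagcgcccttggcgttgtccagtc

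The 4 promoters did not share a single motif of the set. Positions count back from the start, with -1 the base before it. A TATAAA match lay at -32 to -27 in Vim and at -117 to -112 in Col3a1, and 13.6% of 32851 RefSeq promoter windows of 300 bases (250 before and 50 after the start) hold one. The GC box occurred at -205 and -188 in Col1a2 and at -37 in Serpinh1 (35.7% of all windows). CCAAT was found at -109 in Col1a2, with a further match on the opposite strand within the 5 bases after the start, and in Vim at -196 and, on the opposite strand, from -94 (37.4% of all windows). CAGAC, the short Smad-binding sequence, was present in Col1a2, Col3a1 and Serpinh1 (49.6% of all windows). Neither Serpinh1, a gene of the heat shock protein family, nor the other 3 promoters held GAANNTTC in this window (7.86% of all windows). GC content was 62.0% for Col1a2, 63.6% for Serpinh1 and 58.4% for Vim, while Col3a1 had 35.2%, below the lower quartile of all promoters (median 52.4%, quartiles 45.2% and 61.2%). These are matches of letters, and no binding was measured.

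Each library was described by its own low values. The worth of 1 read was 0.0241 to 0.273 CPM in cells 1 to 37 and could not be read off in cells 38 and 39. Genes reaching 1 CPM numbered 1866 to 5298 per cell, with a median of 2985. The deposited values of a cell added up to between 351255 and 3128330 CPM, so they carry a scaling factor beyond the total. For the cell groups used below, 88 cell type markers were clustered, without the 6 genes, the fibroblast markers or any other listed matrix gene. The planned rule returned 3 groups of 29, 6 and 4 cells (silhouette 0.473), and a split into 4 groups of 22, 7, 6 and 4 cells (silhouette 0.436) was chosen after seeing the data, with the levels of the matrix genes known. The 22 cells were cholangiocyte-like, led by Spp1, Tm4sf4 and Cdh1, and the 6 were hepatocyte-like (cells 1 to 4, 38 and 39), led by major urinary protein genes and Apoa1. The 4 cells with leukocyte markers (29, 32, 33 and 36) were given no name. The 7 cells (5, 6, 7, 8, 10, 35 and 37) held 6 to 13 of 15 measured mesothelial markers at 100 CPM each, against at most 4 in any other cell, and are called the 7 cells with mesothelial markers. They were given no cell type name, since the fibroblast genes Dcn, Col1a2 and Col3a1 led them beside the mesothelial Nkain4 and Lrrn4. The markers also differed between the 7 cells. Cell 37 held Lrrn4 at 2937 CPM and Aldh1a2 at 860 CPM, but Msln at 0.560, Gpm6a at 0.365, Gpc3 at 0.240 and Upk3b at 0.080 CPM.

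At 100 CPM the 6 genes were found together in a small set of cells and rarely elsewhere. No member reached 100 CPM in 23 of the 39 cells, a single member did so in 9 cells, and no cell held exactly 2. The remaining 7 cells held 3 or more (17.9%, exact 95% interval 7.54% to 33.5%, covering the choice of cells only). All 6 members were at 100 CPM in cells 6, 8, 10 and 37, 5 of them in cell 7, 4 in cell 5 and 3 in cell 35. These are the 7 cells with mesothelial markers. The clustered markers did not include the matrix genes, but the split into 4 groups was chosen with the matrix gene levels known. The match is therefore not an independent one, and the planned 3 groups did not set these 7 cells apart. Taken gene by gene, Vim reached 100 CPM in the most cells, 12 of 39 (17.0% to 47.6%). Dcn did so in 9 (11.1% to 39.3%), Col1a2 in 7 and Serpinh1 in 7 (each 7.54% to 33.5%), Col3a1 in 6 (5.86% to 30.5%) and Col1a1 in 4 (2.87% to 24.2%). The median over the 9646 genes was 3 cells. The members were listed at 0 in 18 cells for Dcn, 23 for Col1a1, 16 for Col1a2, 20 for Col3a1, 19 for Serpinh1 and 11 for Vim, beside a median of 20 cells over all genes. In such data a gene listed at 0 may still have been transcribed.

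**Figure D1:**
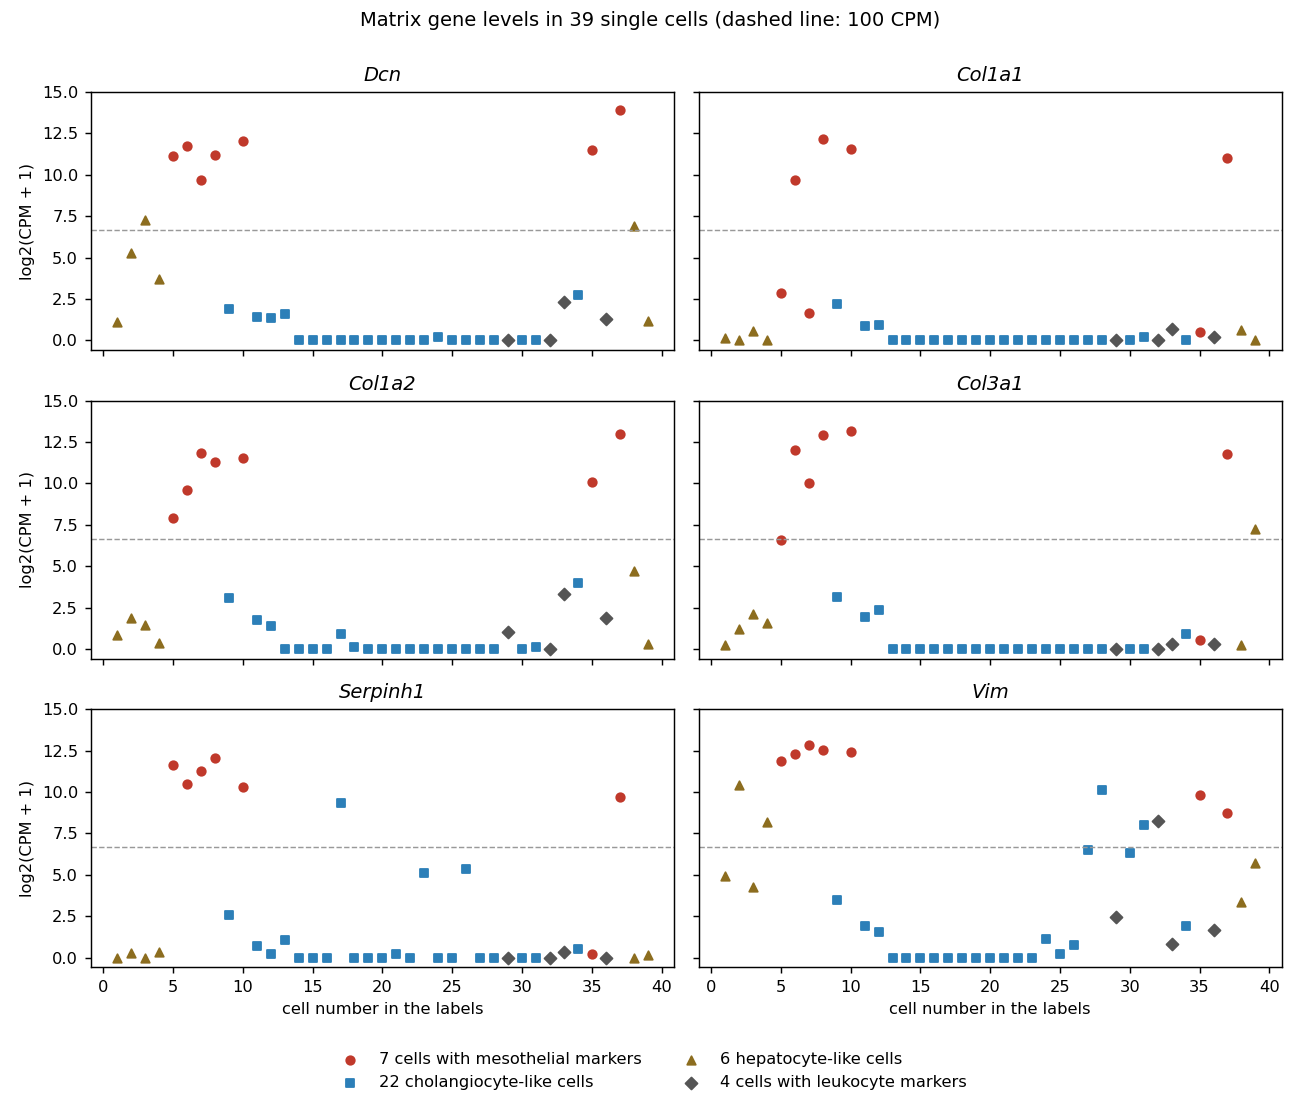
Level of each matrix gene, as log2(CPM + 1), in each of 39 cells ordered by the cell number of the labels, with 1 panel per gene, 1 point per cell and the colour and shape giving the cell group; the dashed line is 100 CPM. The 7 cells with mesothelial markers lie above the line for Dcn, Col1a2 and Vim, while Col1a1 is above it in 4 of them, Col3a1 in 5 and Serpinh1 in 6.

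Decorin had the largest mean difference between the 7 cells and the others. Dcn was at 2229.7 CPM in cell 5, 3367 in cell 6, 811 in cell 7, 2361 in cell 8, 4170.3 in cell 10, 2937 in cell 35 and 15486.5 in cell 37. The lowest of these, in cell 7, was above every one of the 32 other cells, of which the highest was the hepatocyte-like cell 3 at 153 CPM. Mean log2(CPM + 1) was 11.60 ± 1.27 (SD, n = 7 cells) against 1.19 ± 1.99 (SD, n = 32 cells), a difference of 10.40 and the largest of the 9646 genes. The hepatocyte-like cells were the only other group with Dcn at 100 CPM in any cell: cell 38 had 119 CPM, cell 2 had 37.3 and cell 4 had 12.0, and all 6 of them were above 1 CPM. In the 22 cholangiocyte-like cells Dcn was at most 5.84 CPM (cell 34), and 6 of the 22 had any value above 0.

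Decorin reads were assigned to 2 RefSeq transcripts. The minor of these took 2.89% to 59.4% of the Dcn signal in the 7 cells, with a median of 17.0%, and exceeded 50% of it in cell 37 only. In the hepatocyte-like cells 3 and 38, the other cells with Dcn at 100 CPM, the same transcript took 99.1% and 98.8%. In cell 2, with 37.3 CPM of Dcn, it took 20.6%. The split between transcripts that share most of their sequence is an estimate of the authors' quantification, and its error is unknown.

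Among the collagens, Col1a2 reached 100 CPM in all 7 cells and Col1a1 in 4 of them. Col1a2 was at 236 CPM in cell 5, 793 in cell 6, 3621 in cell 7, 2472 in cell 8, 2964 in cell 10, 1094 in cell 35 and 8106 in cell 37. Its highest value in the 32 other cells was 24.9 CPM, in the hepatocyte-like cell 38, so that the groups did not overlap and the gap between them was wider on the log scale than for Dcn. The difference in mean log2(CPM + 1) was 9.90 (10.75 ± 1.68, SD, n = 7 cells, against 0.84 ± 1.30, SD, n = 32 cells), the second largest of all genes.

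Col1a1, whose product joins that of Col1a2 in the same helix, fell into separate levels within the 7 cells. It was at 829 CPM in cell 6, 4637 in cell 8, 2996 in cell 10 and 2114 in cell 37. In the other cells of the group it was at 6.14 CPM in cell 5, 2.16 in cell 7 and 0.447 in cell 35, which correspond to about 95, 37 and 3 reads. Cell 7 therefore held Col1a2 at 3621 CPM beside Col1a1 at 2.16 CPM. Outside the group Col1a1 was at most 3.56 CPM, in cell 9, and 6 of the 32 cells lay above the lowest of the 7. The mean difference was 6.87 with a large spread inside the group (7.07 ± 5.14, SD, n = 7 cells, against 0.20 ± 0.45, SD, n = 32 cells).

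Col3a1, the chain of type III collagen, followed Col1a1 more closely than Col1a2 within the 7 cells. It was at 4121 CPM in cell 6, 7773 in cell 8, 9116 in cell 10, 3555 in cell 37 and 1033 in cell 7. Cell 5 had 95.9 CPM, just under the threshold, and cell 35 had 0.447 CPM, about 3 reads. Over the 7 cells Spearman's rho was 0.89 between Col3a1 and Col1a1 and 0.29 between Col3a1 and Col1a2, given as a description with n = 7. Outside the group a single cell, the hepatocyte-like cell 39, reached 100 CPM, with 152 CPM. The mean difference was 8.90 (9.58 ± 4.58, SD, n = 7 cells, against 0.67 ± 1.47, SD, n = 32 cells).

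The collagen chaperone Serpinh1 was high in 6 of the 7 cells. It was at 3235 CPM in cell 5, 1449 in cell 6, 2433 in cell 7, 4259.7 in cell 8, 1245 in cell 10 and 823 in cell 37. In cell 35 it was at 0.149 CPM, the worth of about 1 read, although that cell held Col1a2 at 1094 CPM. Cell 5 differed from it, with Serpinh1 second to Vim per transcript length and all 3 collagen chains at 236 CPM or less. Beyond the group, Serpinh1 was at 648 CPM in cell 17, 39.6 in cell 26 and 33.7 in cell 23. All 3 are cholangiocyte-like cells in which Col1a1 and Col3a1 were listed at 0 and Col1a2 was at most 0.884 CPM. The mean difference was 8.56 (9.38 ± 4.13, SD, n = 7 cells, against 0.82 ± 2.04, SD, n = 32 cells), and 11 of the 32 cells lay above the lowest of the 7. Serpinh1 reads were spread over 4 transcripts, of which a single one took 57.8% to 91.7% of the signal in the 6 cells.

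Vimentin was high in all 7 cells and also in a number of others. Vim was at 3717 CPM in cell 5, 5093 in cell 6, 7321 in cell 7, 5874 in cell 8, 5414 in cell 10, 913 in cell 35 and 431 in cell 37. The lowest levels of the group were thus in cells 35 and 37, where Dcn was at 2937 and 15486.5 CPM. Outside the group 5 cells reached 100 CPM. Of these, cell 2 (1345.6 CPM) and cell 28 (1124 CPM) lay above the lowest of the 7, and cells 32, 4 and 31 had 307, 285 and 255 CPM. They belong to 3 groups, with cells 2 and 4 hepatocyte-like, cells 28 and 31 cholangiocyte-like, and cell 32 with leukocyte markers. The other leukocyte-marker cells had 0.754 to 4.50 CPM. The mean difference was 8.63 (11.50 ± 1.57, SD, n = 7 cells, against 2.87 ± 3.35, SD, n = 32 cells).

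All 6 members were therefore higher by 2 or more on the log2(CPM + 1) scale in the 7 cells, against 11.7% of the 9646 genes (1133 genes) and a median difference of 0.10 over all genes. The median over the 6 members was 8.77, and 5 of them ranked in places 1 to 8, with Col1a1 in place 35. For Dcn and Col1a2, 2 of the 6, every one of the 7 cells was above every other cell, which held for 9 of the 9646 genes (0.0933%). The split into 4 groups was chosen with the matrix gene levels known, and the members with earlier results of these data known. These ranks and shares are therefore descriptions and not independent support. In the number of genes at 100 CPM the 7 cells lay within the range of the others, with 741 to 1454 against 581 to 1474. Their values added up to between 883829 and 1490930 CPM, within the range of the others. In the planned 3 groups, which joined the 7 cells to the 22 cholangiocyte-like ones, the difference between those 29 cells and the 10 others passed 2 for Serpinh1 only (3.02, 1 of 6 members, against 5.03% of all genes). It was 1.63 for Col1a1, 1.42 for Col1a2, 1.28 for Col3a1, 0.21 for Dcn and -0.79 for Vim.

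Ranked over all 39 cells the members followed each other, and less so within the 7 cells or within the 32 others. Over the 39 cells Spearman's rho had a median of 0.65 across the 15 pairs of members, from 0.38 for Serpinh1 with Vim to 0.90 for Dcn with Col3a1. Within the 7 cells the median was 0.29, from 0.89 for Col1a1 with Col3a1 down to -0.64 for Dcn with Serpinh1. Dcn with Vim was at -0.57 there, and Serpinh1 with Vim at 0.64. In the 32 other cells, where most values are 0 or a few reads, the median was 0.38, from -0.10 for Serpinh1 with Vim to 0.85 for Dcn with Col3a1. There Col1a2 was at 0.80 with Col3a1 and at 0.77 with Dcn. These coefficients are descriptions. The cells share a scaling per library and fall into groups. The coefficients over 39 and 32 cells also rest on low values that differed with the cell number, as described below. They do not show that the members were present together outside the 7 cells.

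**Figure D2:**
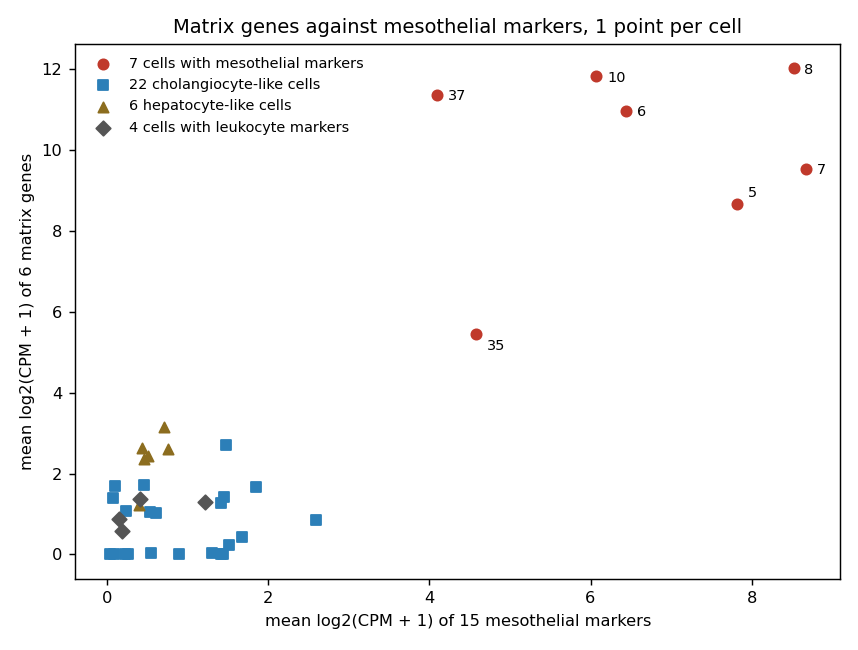
Mean log2(CPM + 1) of the 6 matrix genes (vertical axis) against that of 15 mesothelial markers (horizontal axis), with 1 point per cell, colours and shapes by cell group, and cell numbers beside the 7 cells with mesothelial markers. The 7 cells lie apart at the upper right, and among them cell 35 is lowest and cell 8 highest for the matrix genes.

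Levels of different members were compared per 1000 bases of transcript. On this scale Vim was the highest member in cells 5, 6, 7, 8 and 10, and Dcn in cells 35 and 37. Over the 7 cells the median was 2322 CPM per 1000 bases for Vim, 1671 for Dcn, 656 for Serpinh1, 639 for Col3a1, 462 for Col1a2 and 139.8 for Col1a1. Vim ranged from 196 to 3338 and Dcn from 461 to 8809, so the order of the leading pair changed between cells. Per length, Col1a1 was 1.69 times Col1a2 in cell 8, 0.943 in cell 6, 0.912 in cell 10 and 0.235 in cell 37. The ratio was 0.0235 in cell 5, 0.000538 in cell 7 and 0.000369 in cell 35. Col3a1 was 5.00 times Col1a2 in cell 6, 3.02 in cell 8 and 2.96 in cell 10, and 0.421 or less in the other 4 cells. Thus cells 6, 8 and 10 held comparable levels of both type I chains with more Col3a1, and the other 4 held Col1a2 above both Col1a1 and Col3a1.

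**Figure D3:**
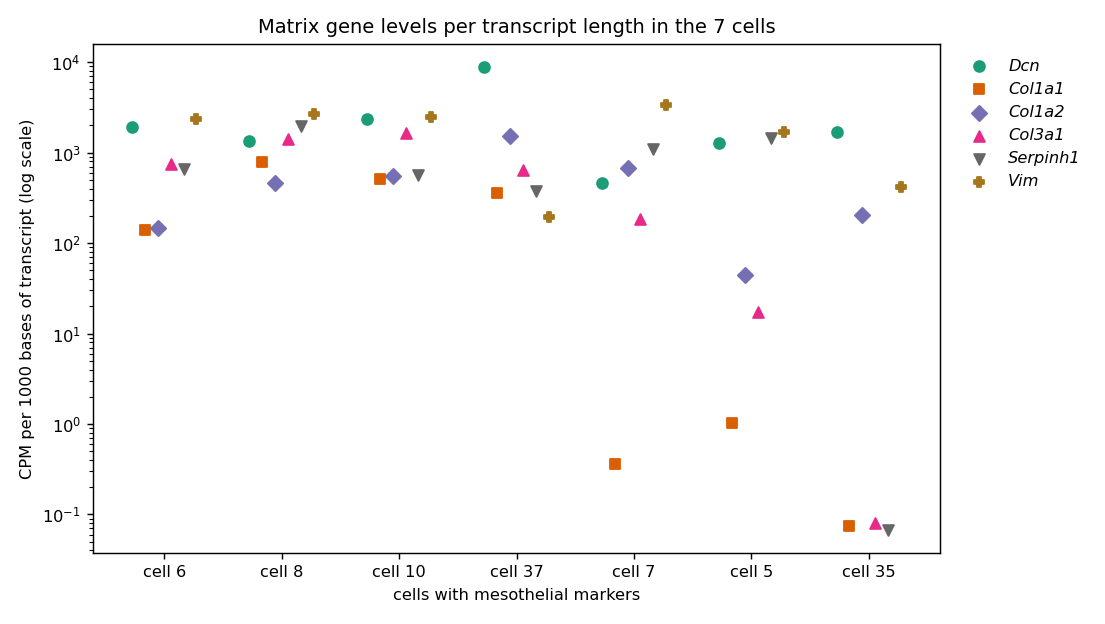
Level of each matrix gene in CPM per 1000 bases of transcript (log scale) in the 7 cells with mesothelial markers, with 1 symbol per gene. Cells 6, 8, 10 and 37 hold all 6 genes at 139.8 or more, whereas Col1a1 lies below 2 in cells 7, 5 and 35, and Col3a1 and Serpinh1 lie below 2 in cell 35.

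The 3 cells with balanced type I chains also held proliferation genes. Of the 16 measured proliferation genes, 7 were at 100 CPM in cell 6, 7 in cell 8 and 9 in cell 10, against at most 1 in the other 4 cells. Among the 7 cells these 3 also had the highest number of genes at 100 CPM (1415 to 1454, against 741 to 1213). The part of either in the collagen levels was not tested. Krt19, the driver of the lineage label, was at 324 CPM in cell 5, 96.3 in cell 6, 1089.8 in cell 7, 127 in cell 8 and 457 in cell 10, and was listed at 0 in cells 35 and 37. Dcn and Col1a2 were at 100 CPM both where Krt19 was present and where it was listed at 0.

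Other cell type markers were set beside the members. The mesothelial list had 14 of 15 genes higher in the 7 cells (median difference 6.52), a list that took part in forming the group. Its summed level was 4555 to 12723 CPM in the 7 cells and 0.410 to 3410.3 CPM in the others. Markers of hepatic stellate cells and fibroblasts other than the members had not formed the groups. Of 21 such markers 8 were measured and 5 reached 1 CPM in 4 or more cells, and 1 was higher and 1 lower in the 7 cells. Acta2, smooth muscle actin, differed by 2.49 and reached 100 CPM in cell 6 only (547 CPM), and Rgs5, a pericyte gene, differed by -2.61. Pdgfra, a growth factor receptor of fibroblasts, differed by 1.82 and reached 100 CPM in cell 37 only (381 CPM). Cspg4 differed by 0.96 (at most 25.6 CPM in the 7 cells) and Ngfr by -0.76. The other 3 measured markers did not reach 1 CPM in 4 cells. Of these, Lrat, the stellate enzyme of vitamin A storage, was at most 0.504 CPM in the 7 cells, and Reln at most 0.117 CPM. Thy1, a fibroblast marker, was at 256 CPM in cell 5, against at most 3.59 CPM in the 32 others. The summed level of the 8 measured markers was 0.142 to 548 CPM in the 7 cells and 0.00492 to 3743 CPM in the 32 others. The top sum, in the cholangiocyte-like cell 34, was almost entirely Rgs5 (3742.61 CPM). Outside the 7 cells Rgs5 passed the 100 CPM threshold only among cholangiocyte-like cells (8 of 22). Reln did so in 2 of them, and no further marker of this list did in any of the 32. Albumin (Alb) was at most 0.0800 CPM in the 7 cells, and of the 28 hepatocyte markers 0 were higher there and 18 were lower. Their summed level was 23.1 to 603 CPM in 6 of the 7 cells and 16905.5 CPM in cell 37, which also had the highest Dcn and Col1a2. Most of the sum in cell 37 was Trf (transferrin) at 14771 CPM and Hp (haptoglobin) at 2131 CPM, and Trf reached 100 CPM in 4 of the 7 cells. The part of these transcripts in the matrix gene levels was not tested.

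The genes that fold, cut and cross-link collagen were in part higher in the 7 cells. Of 21 genes of the folding and processing list in 4 or more cells, 9 (42.9%) were higher by 2 or more and 0 were lower, with a median difference of 1.71. Over all 9646 genes 11.7% were higher and 2.65% lower by 2 or more, with a median of 0.10, and the lists that follow stand beside these shares. Loxl1, a cross-linking oxidase, differed by 6.45 and was at 33.0 CPM or more in each of the 7 cells. Pcolce, an enhancer of propeptide removal, differed by 5.87, the prolyl isomerases Fkbp9 and Fkbp10 by 4.31 and 2.82, and Loxl2 by 3.49. Among the 7 cells Fkbp10 reached 100 CPM in cell 6 only. P4ha1, a catalytic subunit of prolyl 4-hydroxylase, differed by 2.75, while its partner P4hb differed by 1.71 and the lysyl hydroxylase Plod1 by -0.02. Of 16 heat shock genes 4 (25.0%) were higher and 0 were lower (median 1.00, under the 1.12 of 12 housekeeping genes). The endoplasmic reticulum chaperones Hsp90b1 and Hspa5, which are general rather than dedicated to collagen, differed by 3.28 and 2.70. Hspb8 and Hspb1 were the others past 2, at 3.54 and 2.54.

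Further collagens and matrix proteins were higher in the same cells, although not in each of them. Of 14 other collagen chains, 6 were higher and 1 was lower (median 1.28). Col5a2, Col5a1, Col6a1, Col14a1 and Col6a2 differed by 5.79, 5.37, 5.36, 5.35 and 4.69. These chains of types V, VI and XIV reached 100 CPM in none of the 32 other cells and in 3 or 4 of the 7 each. They were unevenly spread: Col5a2 was at 5945 CPM in cell 35 and listed at 0 in cells 7 and 8. Cell 35, with Col1a1 and Col3a1 at about 3 reads each, thus held the highest Col5a2 value of the 39 cells. Col4a1, a basement membrane chain, differed by -2.22. Of 6 other small leucine-rich proteoglycans 2 were higher (median 0.79, under that of the housekeeping genes). They were Bgn (biglycan), the closest relative of decorin, at 4.18 and Podn at 2.06. Podn was at most 89.2 CPM in the 7 cells and at most 92.8 CPM in the 32 others. Bgn reached 100 CPM in cells 5, 7 and 10 only, while Dcn did so in all 7.

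Of 22 matrix glycoprotein and basement membrane genes, 9 were higher and 2 lower (median 1.80). Sparc, a collagen-binding secreted protein, differed by 8.29 and was at 855 to 5572 CPM in the 7 cells. Fbln1 (fibulin-1) differed by 7.53, Ecm1 by 5.24, Efemp1 by 4.97 and Hspg2 (perlecan) by 4.68. Fn1, encoding fibronectin, differed by -2.02 and Vtn, encoding vitronectin, by -2.94. Outside the group, Fn1 reached 100 CPM in 12 of the 22 cholangiocyte-like and 5 of the 6 hepatocyte-like cells. Vtn did so in 3 and 6 of them. Fn1 was at 7234 CPM in cell 37 and listed at 0 in cells 5, 7 and 8. Of 15 turnover genes 5 were higher and 0 were lower (median 1.36). The metalloproteinase inhibitors Timp2, Timp1 and Timp3 differed by 5.88, 4.52 and 2.32, and the protease genes Plat and Ctsl by 2.78 and 2.76.

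Receptors and TGF-beta genes were more mixed. Of 13 collagen and decorin receptor genes 5 were higher and 1 lower (median 1.36). The syndecan Sdc4 differed by 3.13, the integrin subunit Itgb1 by 2.84, Met by 2.44 and the collagen receptor Ddr1 by 2.25, and Cd44 differed by -2.34. Met and Ddr1 each reached 100 CPM in 1 of the 7 cells, against 1 and 4 of the 32 others. Of 18 TGF-beta ligands, receptors and Smads 4 (22.2%, beside 11.7% of all genes) were higher and 1 lower (median 0.74, also under that of the housekeeping genes). The receptors Tgfbr3 and Tgfbr2 differed by 5.76 and 4.11, Smad2 by 2.69 and Ltbp1 by 2.23. Smad7, an inhibitor of the pathway, differed by -2.17, Smad3 by -1.66, Smad4 by -1.11 and Ctgf by -1.54. The ligand gene Tgfb1 differed by -0.85. Of 9 mesenchymal transcription factors 2 (22.2%) were higher and 0 were lower (median 0.13). Wt1, which also belongs to the mesothelial list that helped to form the group, differed by 7.28 and Tead1 by 3.81. Snai2 and Zeb1 differed by 0.13 and 0.06. Prrx1 differed by 1.39 and reached 100 CPM in cell 37 only (1276 CPM).

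Vimentin was accompanied by most genes of its list. Of 17 intermediate filament genes and vimentin partners 11 were higher and 2 lower (median 3.18). Anxa1 and Anxa2, membrane-binding annexins, differed by 6.98 and 4.12, the calcium-binding S100a6 by 6.14, the tropomyosin Tpm1 by 4.64 and Lgals1 (galectin-1) by 3.97. Of the keratins of simple epithelia on this list, Krt8 and Krt18 differed by -3.12 and -3.41, while Krt7 and Krt19 differed by 1.48 and 2.05. Krt18 was found beside vimentin in part of the 7 cells, at 3419.5 CPM in cell 7, 1937 in cell 8, 794 in cell 6 and 150.0 in cell 5, and at 2.45 CPM or less in cells 10, 35 and 37. For comparison, 2 of 12 housekeeping genes were higher, with a median difference of 1.12. These lists are described by counts and medians only.

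**Figure D4:**
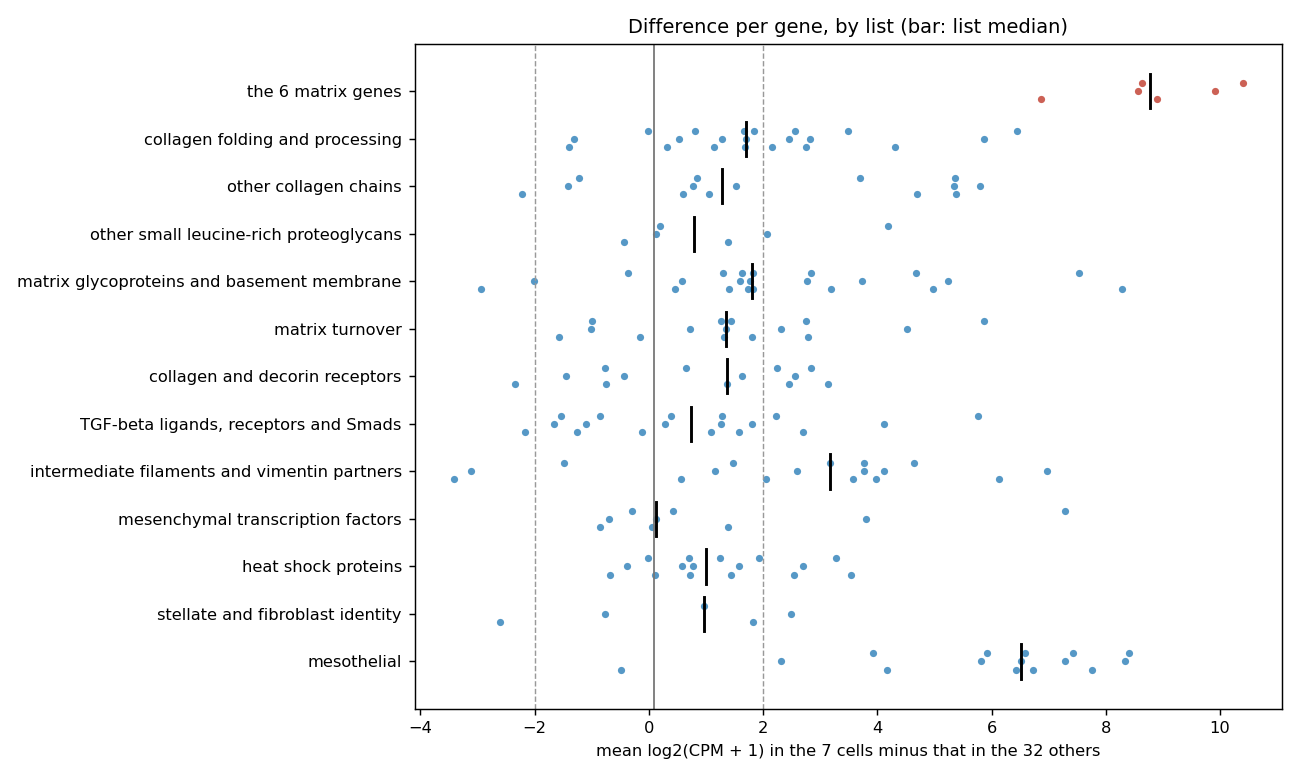
Difference in mean log2(CPM + 1) between the 7 cells with mesothelial markers and the 32 others, with 1 point per gene and 1 line of points per list; bars are list medians, the solid line is the median over all 9646 genes (0.10) and dashed lines are at 2 and -2. The 6 matrix genes lie between 6.87 and 10.40, and only the mesothelial list, which helped to form the group, has a median near theirs, at 6.52.

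The genes most like each member over the 39 cells were named by Spearman's rho, the 5 highest for each, as a description. For Dcn they were C1ra (0.90), Gpc3 (0.87), Ptgis (0.86), Saa3 (0.85) and Pkhd1l1 (0.85). Col3a1 was followed by Saa3 (0.93), C1ra (0.91), Ptgis (0.87), Ccdc80 (0.83) and Nkain4 (0.83). Col1a2 had C1ra (0.86), Nkain4 (0.84), Fndc1 (0.83), Gpr133 (0.83) and Fkbp2 (0.82), and Col1a1 had Fndc1 (0.84), Ccdc80 (0.83), Ptgis (0.83), Pkhd1l1 (0.83) and Gpr133 (0.83). C1ra, a protease of the complement system, was on the lists of 4 members, and Ccdc80, Pkhd1l1 and Ptgis were on 3 each. Saa3, an acute phase gene, was on 2, as were Fndc1, Gpr133 and Nkain4. C1ra reached 100 CPM in 4 of the 7 cells and 0 of the 32 others, and Saa3 in 6 and 0. Serpinh1 and Vim had lower values. For Serpinh1 the genes were Tmem119 (0.75), Lrrn4 (0.73), Igfbp6 (0.73), Pkhd1l1 (0.72) and Ccdc80 (0.71), and for Vim they were Pnp (0.78), Rarres2 (0.78), Atg3 (0.77), C1ra (0.73) and Cav1 (0.73). The median rho of all genes lay between -0.02 for Serpinh1 and 0.09 for Vim. Nkain4, Lrrn4 and Gpc3 are mesothelial markers that had formed the group of 7 cells. The ranks also hold the low values outside the 7 cells, which for several members and Saa3 differed with the cell number, as described below. By Pearson's r of log2(CPM + 1), 1 to 3 of the 5 genes remained for each member, with 1 for Dcn.

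Low values of the members differed with the cell number in the labels, a pattern looked for after seeing the data. All 7 high cells lie among numbers 5 to 10 and 35 to 37. In the 19 cells numbered 14 to 32, Dcn was above 0 in 1 cell, Col1a1 in 1, Col1a2 in 4 and Col3a1 in 0. In the 13 other cells outside the 7, the counts were 13, 8, 12 and 12. Serpinh1 was above 0 in 4 of the 19 and 9 of the 13, and Vim in 9 and 12. Cells 9, 11 and 12, which are cholangiocyte-like and carry numbers next to high cells, held all 6 members above 0, each at 9.93 CPM or less. Saa3 showed the same split, with 0 of 19 and 12 of 13 cells, and the mesothelial marker Nkain4 had 0 of 19 and 8 of 13. The duct genes Spp1 and Clu were above 0 in 19 of 19 and 13 of 13. Their medians in the 19 cells were 19758 and 9484 CPM, so they cannot show how low values behave. The labels do not say whether cell numbers follow a plate, sort or run, and the part of the number in these low values was not tested. The numbers also go with the cell groups, since all 6 hepatocyte-like cells lie outside the run of 14 to 32. Values of a few CPM outside the 7 cells were therefore not used to call a member present.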

How the data were processed

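Single-cell RNA libraries of 39 cells were analysed. Per the submitters' processing notes, Bowtie 0.12.9, eXpress 1.5.1, edgeR (no version) and the mouse build mm9 were used; their order and settings are not given in the sources used here. The deposited log2 values covered 13568 transcripts. Their shared minimum, -2.58 (0.167 on the linear scale), was taken as no reads, and each value was returned to a linear CPM by raising 2 to it and subtracting that minimum. The scale was inferred from the values. The plan had foreseen a linear unit, and the back-transformed values were used for it. Transcripts were added per symbol and 0 columns were left unused.

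Differences are of mean log2(CPM + 1), with 2 or more called higher, over genes at 1 CPM in 4 or more cells. Cells were grouped by Ward clustering on 10 principal components of 88 scaled markers, with 2 to 6 groups of at least 3 cells by silhouette. Lengths came from GENCODE M21 transcripts matched by identifier, and promoters from RefSeq. Proteins, and promoters of Dcn and Col1a1, were not analysed here. Doublets were not called, all cells were kept, and no test between cells was made. Reads carry no molecular identifiers, so their number overstates the number of molecules counted. Named genes are the 6 members, the 5 most like each, and per list up to 5 past the difference of 2 and up to 3 well-known ones; other list genes were named after their values were seen. The members, lists and rules were chosen with earlier results of these data known. Tools were Python 3.11.15, numpy 2.4.6, pandas 2.3.3, scipy 1.17.1, scikit-learn 1.9.0 and matplotlib 3.10.9. The difference ranking was tested on simulated data.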

Additional observations from a re-analysis of the deposited data

How the results depend on the processing

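No paired analysis was possible because the labels give 1 group of cells. Counting any value above 0 in place of 100 CPM gave 21 cells for Dcn, 16 for Col1a1, 23 for Col1a2, 19 for Col3a1, 20 for Serpinh1, 28 for Vim and 20 with 3 or more members. At 1 CPM the counts were 20 for Dcn, 17 for Col1a2, 13 for Col3a1, 25 for Vim and 17 with 3 or more members. Rescaling each cell without Rn45s, Lars2 and Rorb gave 7 cells with 3 or more members, as did leaving out cells 38 and 39, an alternative chosen after seeing the data. In the planned 3 groups, where 1 member passed the difference of 2, 0 did at a pseudocount of 10, 3 without the hepatocyte-like cells, 6 with groups from unlisted genes and 6 with 4 groups, the last chosen after seeing the data. The groups from unlisted genes placed all 7 cells in a cluster of 8, with cell 36. For the 7 cells against the 32 others, the differences of Dcn, Col1a2 and Vim at a pseudocount of 10 were 7.85, 7.23 and 6.78, and those of Dcn and Col1a2 at 0.1 were 12.49 and 12.02. Of the 5 genes most like each member, Pearson's r kept 1 for Dcn, 3 for Col1a1, 2 for Col1a2, 2 for Col3a1, 2 for Serpinh1 and 2 for Vim. Leaving out the hepatocyte-like cells kept 1 for Dcn, 3 for Col1a2, 1 for Col3a1 and 3 for Serpinh1. Of the other alternative values, 48 of main results and 31 of single members stayed within their range. Depth limits the low values, since 1 read was worth up to 0.273 CPM.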
